A study of Homo sapiens with 12 samples.

Results

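The genes examined were 8 metallothioneins (*MT1A*, *MT1E*, *MT1F*, *MT1G*, *MT1H*, *MT1M*, *MT1X* and *MT2A*) and the zinc response pair *MTF1* and *SLC30A1*, 10 genes of the 35238 in the table. They were chosen by name, with earlier results of these data known. Metallothioneins are small, cysteine-rich proteins of the cytosol that bind zinc, copper and cadmium. MTF1 is a zinc-sensing transcription factor that, when zinc rises, binds metal response elements in front of metallothionein genes and of *SLC30A1*, whose product ZnT1 pumps zinc out of the cell. The kidney proximal tubule takes up filtered metal bound to metallothionein, and cadmium collects there for that reason.

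The cells were HK-2, an immortalized line from human proximal tubule, sequenced in bulk as polyA RNA. All 12 libraries came from cells transfected with 10 nM of a siRNA duplex and treated at the same time for 24 hours. SCR DMSO cells had the scrambled siRNA and vehicle, SCR AAI cells the scrambled siRNA and 25 µM aristolochic acid I (AAI, a nephrotoxic and DNA-damaging plant compound), siB DMSO cells a duplex against *POLR2A* and vehicle, and siB AAI cells that duplex and AAI, with 3 replicates in each group. The knockdown was transient and rested on 1 duplex, and nothing in the labels says that replicates were separate cultures, so p-values measure the spread between these samples, which may be technical.

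*POLR2A*, which encodes the largest subunit of RNA polymerase II, stood at 258, 288 and 306 CPM (reads of a gene per 1000000 reads of its library) in SCR DMSO and 138, 143 and 139 CPM in siB DMSO. With AAI it stood at 673, 719 and 729 CPM in SCR cells and 266, 220 and 210 CPM in siB cells. The siB libraries were below the SCR libraries in both treatments, by 1.01 on the log2 scale in DMSO (SE 0.13, adjusted p = 0.505) and by 1.61 with AAI (SE 0.15, adjusted p = 0.000582). Depth ran from 15844015 to 42805294 reads a library, so that 3 reads, the limit that a count of 0 allows, were worth 0.0701 to 0.189 CPM, counting error only. Replicate 2 of SCR DMSO stood apart from the others, with a median-ratio scaling factor of 0.776 relative to its total against 0.955 to 1.12 in the other 11 libraries. Replicates 2 and 3 of siB DMSO were the most alike of all pairs within a group. Their reads differed by a chi-square of 4.38 per degree of freedom, against 28.5 to 388 for the other pairs. What this did to the spread and the tests in siB cells was not tested. Of 19 markers of proximal tubule and HK-2 epithelium, 13 had a mean of at least 1 CPM. Among genes of the mature tubule, *GGT1* and *DPP4* had group means of 112 to 175 and 168 to 268 CPM, the receptors *LRP2* and *CUBN* of 0.139 to 0.748 and 0.416 to 1.68 CPM, and *AQP1* and *HNF4A* of 0.174 to 0.355 and 0.468 to 1.04 CPM. The summed level of that list averaged 4267 CPM with vehicle and 3103 CPM with AAI in SCR cells, and 3711 and 2560 CPM in siB cells; its part in the results was not tested, and in bulk RNA fewer cells of a type and less RNA per cell cannot be told apart.

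Each metallothionein gene lies on chromosome 16, in a cluster that ran from the start of *MT2A* (chr16:56608584-56609497, plus strand, hg38) to the end of *MT1X* (chr16:56682470-56684196, plus strand). *MT1G* (chr16:56666730-56668065) was the one member on the minus strand. *SLC30A1* (chr1:211571568-211579161, minus strand) and *MTF1* (chr1:37809574-37859592, minus strand) lie far apart on chromosome 1. *MTF1* overlapped an annotated antisense gene and *MT1X* another gene on its own strand, and the counting is not stated to use strand, so their reads carry that uncertainty.

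Promoter sequence from RefSeq (GRCh38.p14) was held for 5 of the 10 genes: *MT2A*, *MT1H*, *MT1X*, *SLC30A1* and *MTF1*. The 250 bases before the annotated start are shown for the genes with a match to the metal response element core, because the element is what the metallothioneins and *SLC30A1* are known to share. The core was searched as TGCACNC and TGCGCNC on both strands, and capitals mark each match. No 2 matches overlapped within a promoter.
MT2A (chr16:56608334-56608583, plus strand): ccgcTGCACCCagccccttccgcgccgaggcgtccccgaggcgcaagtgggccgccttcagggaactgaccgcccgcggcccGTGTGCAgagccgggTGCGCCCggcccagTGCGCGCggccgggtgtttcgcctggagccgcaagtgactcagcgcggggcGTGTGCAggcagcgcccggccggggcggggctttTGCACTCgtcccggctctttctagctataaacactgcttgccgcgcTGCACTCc
MT1X (chr16:56682220-56682469, plus strand): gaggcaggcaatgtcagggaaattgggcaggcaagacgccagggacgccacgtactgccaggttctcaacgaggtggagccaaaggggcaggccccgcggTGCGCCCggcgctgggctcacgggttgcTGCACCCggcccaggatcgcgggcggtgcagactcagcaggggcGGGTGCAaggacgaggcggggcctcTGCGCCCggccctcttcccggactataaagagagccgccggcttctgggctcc
MT1H (chr16:56669564-56669813, plus strand): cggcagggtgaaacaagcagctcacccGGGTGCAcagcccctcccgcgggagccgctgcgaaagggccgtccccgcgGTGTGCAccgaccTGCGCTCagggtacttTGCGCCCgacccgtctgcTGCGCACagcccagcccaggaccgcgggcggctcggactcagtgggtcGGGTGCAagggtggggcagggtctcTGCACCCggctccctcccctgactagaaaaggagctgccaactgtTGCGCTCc
SLC30A1 (chr1:211579162-211579411, minus strand): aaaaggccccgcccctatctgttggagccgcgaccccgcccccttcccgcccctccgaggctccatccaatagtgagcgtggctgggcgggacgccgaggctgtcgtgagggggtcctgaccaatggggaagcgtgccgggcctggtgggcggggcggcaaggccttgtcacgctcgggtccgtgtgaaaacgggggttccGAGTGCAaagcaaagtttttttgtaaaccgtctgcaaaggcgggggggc

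*MT1H* held 8 matches, *MT2A* 7, *MT1X* 4 and *SLC30A1* 1, and *MTF1* held 0 in this window (chr1:37859593-37859842, minus strand). Among 35116 promoters of the same length, 24.8% held at least 1 match, 0.370% at least 4 and 0.0313% at least 7. The 3 metallothionein windows were thus dense in the core, while holding at least 1, as *SLC30A1* did, was common. A match describes letters and not occupancy by MTF1.

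**Figure D1:**
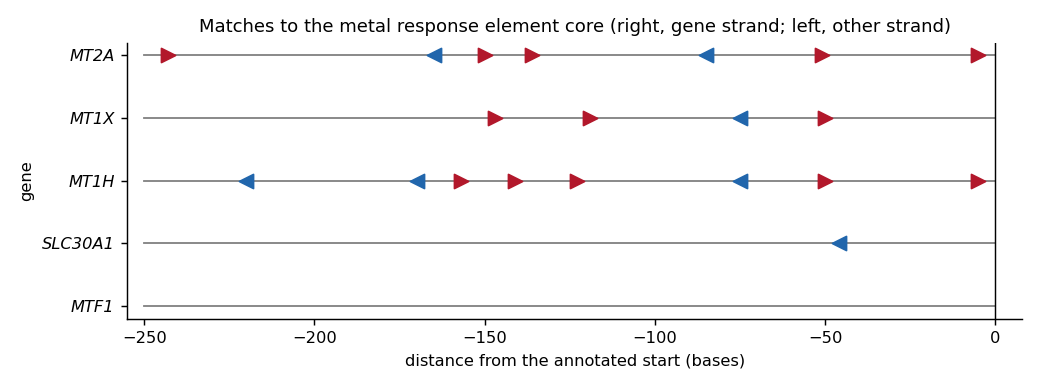
Position of each match to the metal response element core, in bases before the annotated start (0), in the 5 promoters held; right-pointing marks are on the gene's strand and left-pointing marks on the other. *MT2A* shows 7 matches, *MT1X* 4, *MT1H* 8, *SLC30A1* 1 and *MTF1* 0.

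*MT2A*, the most widely expressed human metallothionein, carried most of the family's RNA. Per kilobase of canonical transcript, and as a mean ± SD over the 12 libraries, its level was 1373 ± 839 CPM, followed by *MT1E* at 200 ± 94.0, *MT1F* at 74.2 ± 25.6 and *MT1X* at 66.7 ± 32.5 CPM per kilobase. *SLC30A1* followed at 19.2 ± 7.22, then *MT1M* at 14 ± 3.97, *MT1G* at 6.02 ± 3.64, *MTF1* at 5.61 ± 2.27 and *MT1A* at 5.30 ± 1.81 CPM per kilobase. *MT2A* did not overlap *MT1E* over the libraries (lowest 493 against highest 417 CPM per kilobase), whereas every later pair of neighbours in this order overlapped down to *MT1A*. *MT1H* had 10 reads in all, 0 reads in 6 libraries, and too little signal to test.

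The summed level of the 8 metallothioneins was 449, 1908 and 1206 CPM in SCR cells given vehicle, 464, 873 and 704 CPM in those given AAI, 546, 635 and 643 CPM in siB DMSO, and 304, 835 and 651 CPM in siB AAI. The group means were 1187 ± 730, 680 ± 206, 608 ± 53.9 and 597 ± 270 CPM (SD, n = 3), so all 4 groups overlapped and the widest spread lay within SCR DMSO. Both SCR DMSO replicates 2 and 3 were above all 9 libraries of the other groups, and replicate 1 was below 8 of them. *MT2A* made up 60.9% to 76.8% of the sum, and *MT2A*, *MT1E* and *MT1F* together 93.8% to 96.2%. The smaller shares were not fixed: *MT1F* made up 3.06% to 7.74%, *MT1M* 0.350% to 1.66% and *MT1A* 0.152% to 0.561%. That of *MT1X* ran from 3.01% to 3.94%.

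**Figure D2:**
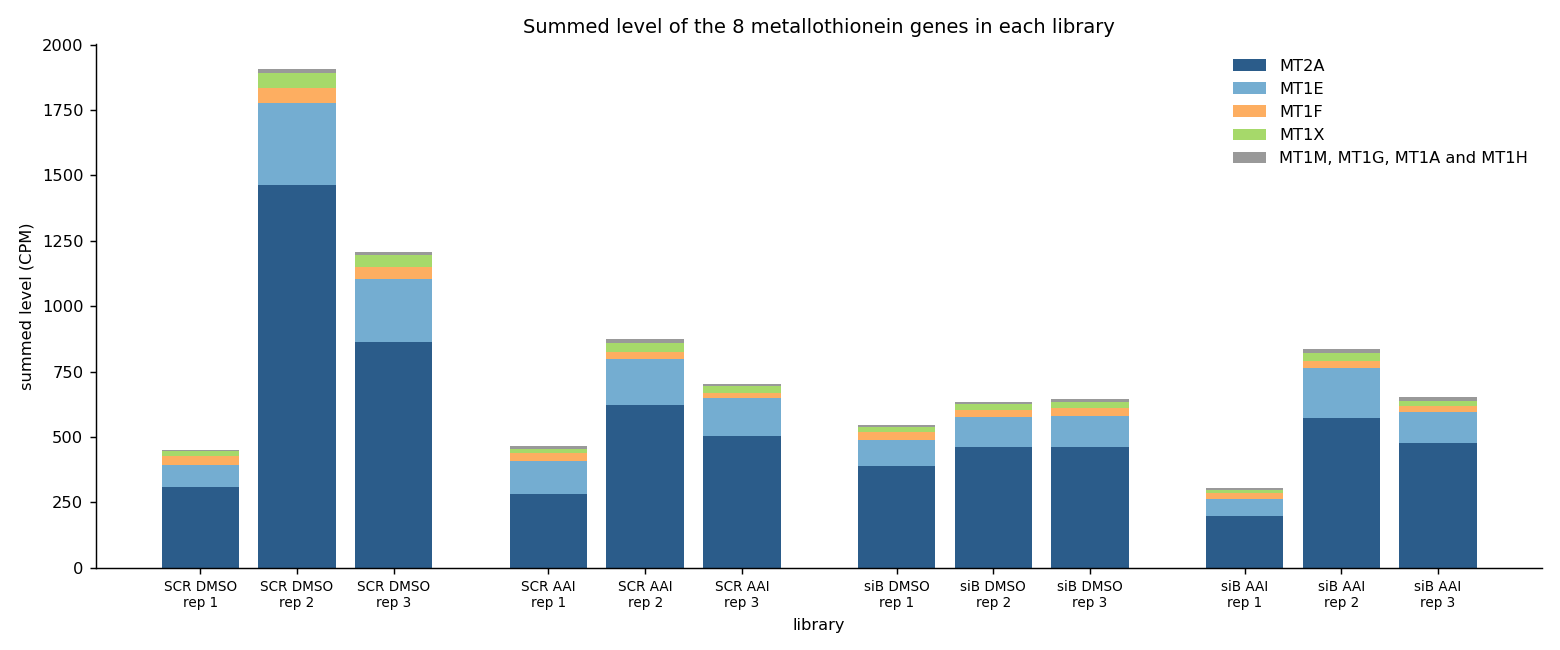
Summed level of the 8 metallothionein genes in CPM (y axis, from 0) in each of the 12 libraries (x axis), with stacked colours for the single genes. The sum runs from 304 CPM in siB AAI replicate 1 to 1908 CPM in SCR DMSO replicate 2, and *MT2A* is the largest part in every library.

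Replicates of a group often held the same order for several metallothioneins. How many of all genes shared that order was not counted. Replicate 1 had the lowest level of its group for 7 of the 7 detected metallothioneins in SCR DMSO and in siB AAI, and for 4 of 7 in each of the other groups. Replicate 2 had the highest level for 7 of 7 in SCR DMSO, 6 of 7 in SCR AAI, 2 of 7 in siB DMSO and 5 of 7 in siB AAI. Over the 12 libraries, the log2 levels of *MT1X* and *MT2A* had a Pearson correlation of 0.977, *MT1E* and *MT1X* 0.961, and *MTF1* and *SLC30A1* 0.891. Other metallothionein pairs were lower, down to 0.121 for *MT1A* and *MT1F* and -0.0472 for *MT1F* and *MT1M*. The correlation of *MT1F* with *SLC30A1* was -0.806. With group means removed, the metallothionein pairs ran from 0.586 (*MT1F* and *MT1G*) to 0.978 (*MT1E* and *MT1X*). These are descriptions over libraries that share group, depth and replicate number, and SCR DMSO replicate 2, the library that stood apart, had the highest metallothionein sum and the lowest *SLC30A1* level, whose part in them was not tested.

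The first question was which of these genes AAI moved. *SLC30A1* was raised by AAI in SCR cells, *MTF1* was raised in siB cells, and for both genes each AAI library was above each DMSO library with either siRNA. No metallothionein was called in either direction with either siRNA. In SCR cells 1 of 9 genes tested was called higher and 0 lower (1 lower at an unadjusted p under 0.05, *MT1F*), where a call is an adjusted p under 0.05 with at least a 2-fold change, beside 7.73% of all 14228 genes called higher and 2.73% called lower. The median change of all genes tested in SCR cells was 0.18 on the log2 scale, and it moved to -0.01 with median-ratio scaling and -0.03 with trimmed-mean scaling, so a change of a member can be read against it: relative to the median, *SLC30A1* was 1.01 higher, *MTF1* 0.62 higher, *MT1F* -0.96 and *MT2A* -0.89 on the log2 scale. On the same footing *MT1X*, *MT1E* and *MT1G* were at -0.70, -0.50 and -0.47, and *MT1M* and *MT1A* at 0.22 and 0.15.

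*SLC30A1*, the zinc exporter of the plasma membrane, stood at 89.1, 48.2 and 76.2 CPM in SCR cells given vehicle and at 150, 142 and 185 CPM in those given AAI. The lowest AAI library was above the highest DMSO library. The log2 change was 1.19 (SE 0.27, adjusted p = 0.0270), a 2.28-fold rise. It was higher in 3 of 3 same-numbered pairs, by 0.75, 1.54 and 1.27 on the log2 scale. The call depended on the fold limit and on single libraries. The change was 0.98 with median-ratio scaling (adjusted p = 0.0269), 0.96 with trimmed-mean scaling (adjusted p = 0.0325) and 0.93 without SCR DMSO replicate 2 (adjusted p = 0.00982), each under the 2-fold limit. Without SCR DMSO replicate 3 it was 1.26 (adjusted p = 0.0751), and without SCR AAI replicate 1, 2 or 3 it was 1.22, 1.26 or 1.07 (adjusted p = 0.140, 0.131 and 0.187).

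*MTF1*, the zinc sensor, stood at 34.4, 24.5 and 35.7 CPM in SCR cells given vehicle and at 49.3, 50.7 and 65.9 CPM in those given AAI. The 2 groups did not overlap, but the log2 change of 0.80 (SE 0.25) did not pass the test (adjusted p = 0.0797). With the replicate number as a block, which the pairing of these libraries allowed, the adjusted p was 0.0319, with the change still under 2-fold. In siB cells it stood at 29.8, 24.3 and 22.5 CPM with DMSO and at 68.8, 66.3 and 61.8 CPM with AAI. Here the rise was 1.34 on the log2 scale (SE 0.13, adjusted p = 5.19e-05), or 2.53-fold, and was called in all 23 alternatives, with values of 1.16 to 1.45. Counts of alternatives here and below hold each left-out library 2 times, with the filter applied again and over the genes tested with all libraries. They are thus not counts of separate checks.

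In siB cells *SLC30A1* stood at 111, 70.4 and 66.0 CPM with DMSO and at 151, 136 and 130 CPM with AAI. Its log2 change of 0.79 (SE 0.18, adjusted p = 0.00542) passed the test but not the 2-fold limit. Without siB DMSO replicate 1, the highest of the vehicle libraries, the change was 1.02 (adjusted p = 0.000113) and was called. In all, 1 of 9 genes tested was called higher and 0 lower in siB cells, beside 13.9% and 5.79% of all 14928 genes. Passing the adjusted p alone were 2 of 9 higher and 0 lower, beside 30.4% and 21.8% of all genes. In SCR cells these were 1 of 9 higher and 0 lower, beside 8.98% and 3.36% of all genes.

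**Figure D3:**
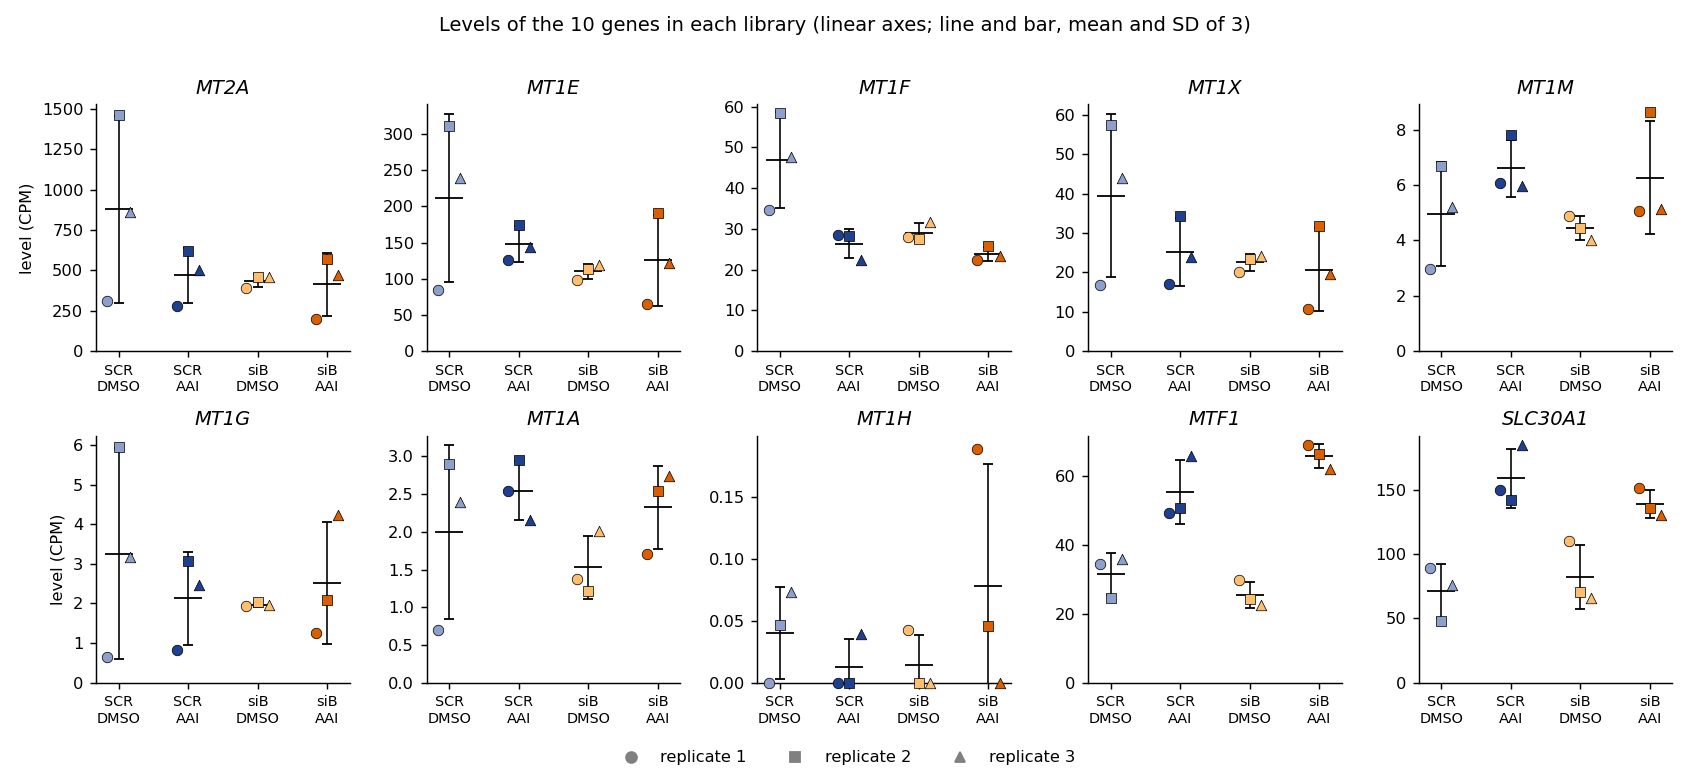
Level in CPM (y axes, linear and from 0, a scale for each gene) of the 10 genes in the 4 groups (x axes); points are libraries, marked by replicate number, and lines with bars are the mean and SD of 3. For *MTF1* and *SLC30A1* the AAI libraries lie above the DMSO libraries with either siRNA, while SCR DMSO spans the widest range for *MT2A*, from 309 to 1465 CPM.

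Of the metallothioneins, *MT1F* was the one whose AAI and DMSO libraries did not overlap with either siRNA. It stood at 34.7, 58.3 and 47.6 CPM in SCR cells given vehicle and at 28.6, 28.3 and 22.3 CPM in those given AAI. The log2 change was -0.78 (SE 0.27) and did not pass the test (adjusted p = 0.102). In siB cells it stood at 28.1, 27.6 and 31.7 CPM with DMSO and at 22.3, 25.8 and 23.4 CPM with AAI, a log2 change of -0.28 (SE 0.13, adjusted p = 0.10), which was -0.39 (adjusted p = 0.0434) with median-ratio scaling and -0.45 (adjusted p = 0.0263) with trimmed-mean scaling. With all 4 groups in one fit the SCR change had an adjusted p of 0.0116, under the 2-fold limit. Across all genes tested, groups did not overlap for 22.2% (higher) and 11.5% (lower) in SCR cells, where this held for *SLC30A1*, *MTF1* and *MT1F*, and for 34.2% (higher) and 26.6% (lower) in siB cells, where it held for the same 3 genes and *MT1M*.

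*MT2A* stood at 309, 1465 and 864 CPM in SCR cells given vehicle, at 283, 622 and 503 CPM in those given AAI, at 390, 462 and 461 CPM in knockdown cells with vehicle and at 198, 574 and 475 CPM in knockdown cells with AAI. The groups overlapped in both comparisons. The AAI change was -0.71 on the log2 scale in SCR cells (SE 0.56, adjusted p = 0.450) and -0.21 in siB cells (SE 0.32, adjusted p = 0.610). The 95% interval in SCR cells reached from -2.00 to 0.57, wider than 2-fold on its lower side. It was lower in 3 of 3 same-numbered pairs, by -0.13, -1.23 and -0.78, and with the replicate block the adjusted p was 0.0870. Without SCR DMSO replicate 2 the value in SCR cells was -0.21 (adjusted p = 0.758), and without siB AAI replicate 1, the lowest of its group, the value in siB cells turned to 0.26 (adjusted p = 0.119).

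*MT1E* and *MT1X* followed the same pattern of levels. *MT1E* stood at 83.9, 311 and 239 CPM in SCR cells given vehicle and 126, 174 and 144 CPM in those given AAI, a log2 change of -0.33 (SE 0.45, adjusted p = 0.681). *MT1X* stood at 16.8, 57.5 and 43.9 CPM in SCR cells given vehicle and 17.2, 34.3 and 23.8 CPM in those given AAI, a log2 change of -0.52 (SE 0.47, adjusted p = 0.519). Without SCR DMSO replicate 2 the *MT1X* change was -0.17 (adjusted p = 0.799). For both genes replicate 1 of SCR DMSO lay below every SCR AAI library. In siB cells *MT1E* had 99.0, 114 and 119 CPM with DMSO and 64.8, 190 and 121 CPM with AAI. Its change of 0.05 (adjusted p = 0.892) turned to -0.06 and -0.12 under the other scalings, and was 0.46 (adjusted p = 0.0718) without siB AAI replicate 1. *MT1X* had 20.1, 23.3 and 24.1 CPM with DMSO and 10.7, 31.8 and 19.6 CPM with AAI there (-0.24, adjusted p = 0.545).

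The low-level isoforms *MT1M* and *MT1A* had positive AAI values with either siRNA, unlike *MT2A*, and *MT1G* had a negative value in SCR cells and a positive one in siB cells. *MT1M* stood at 2.96, 6.68 and 5.22 CPM in SCR cells given vehicle and 6.07, 7.79 and 5.95 CPM in those given AAI, a log2 change of 0.40 (SE 0.30, adjusted p = 0.444), and in siB cells at 4.87, 4.46 and 4.01 CPM with DMSO and 5.05, 8.63 and 5.14 CPM with AAI (0.38, adjusted p = 0.156). *MT1A* was at 0.693 to 2.9 CPM in SCR cells given vehicle and 2.15 to 2.95 CPM in those given AAI (0.33, adjusted p = 0.563), and its change in siB cells was 0.39 (adjusted p = 0.129). *MT1G* was at 0.647 to 5.96 CPM in SCR cells given vehicle and 0.828 to 3.08 CPM in those given AAI (-0.29, adjusted p = 0.756), with 0.16 (adjusted p = 0.650) in siB cells. None of these values passed the test. The isoforms are close copies, and exact stretches shared with another metallothionein transcript reached 64 bases for *MT1F*, 65 for *MT2A* and *MT1A*, 71 for *MT1M*, 73 for *MT1E*, 96 for *MT1G* and *MT1X* and 109 for *MT1H*, so how reads were split between them is uncertain, more so for the isoforms at low level.

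Over the 7 metallothioneins tested, 2 had positive and 5 negative AAI values in SCR cells, with a median of -0.33 beside 0.18 for all genes tested. In siB cells 4 were positive and 3 negative, with a median of 0.05 beside 0.10. These signs rested on single libraries: without SCR DMSO replicate 2, *MT1E* and *MT1G* were at 0.05 and 0.18 in SCR cells, and without siB AAI replicate 1, *MT1X* was at 0.15 in siB cells. The ratio of the summed metallothioneins to *SLC30A1* ran from 5.04 to 39.6 in SCR DMSO and from 3.09 to 6.13 in SCR AAI, and from 4.94 to 9.75 in siB DMSO and 2.01 to 6.14 in siB AAI. The ratio to *MTF1* ran from 13 to 78.0 in SCR DMSO against 9.42 to 17.2 in SCR AAI, which overlapped, and from 18.3 to 28.6 in siB DMSO against 4.41 to 12.6 in siB AAI, which did not. The metallothionein sums themselves overlapped in siB cells, at 546 to 643 CPM with vehicle and 304 to 835 CPM with AAI. The separation of the ratio thus rests on the *MTF1* levels given above and is no separate result on the metallothioneins.

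**Figure D4:**
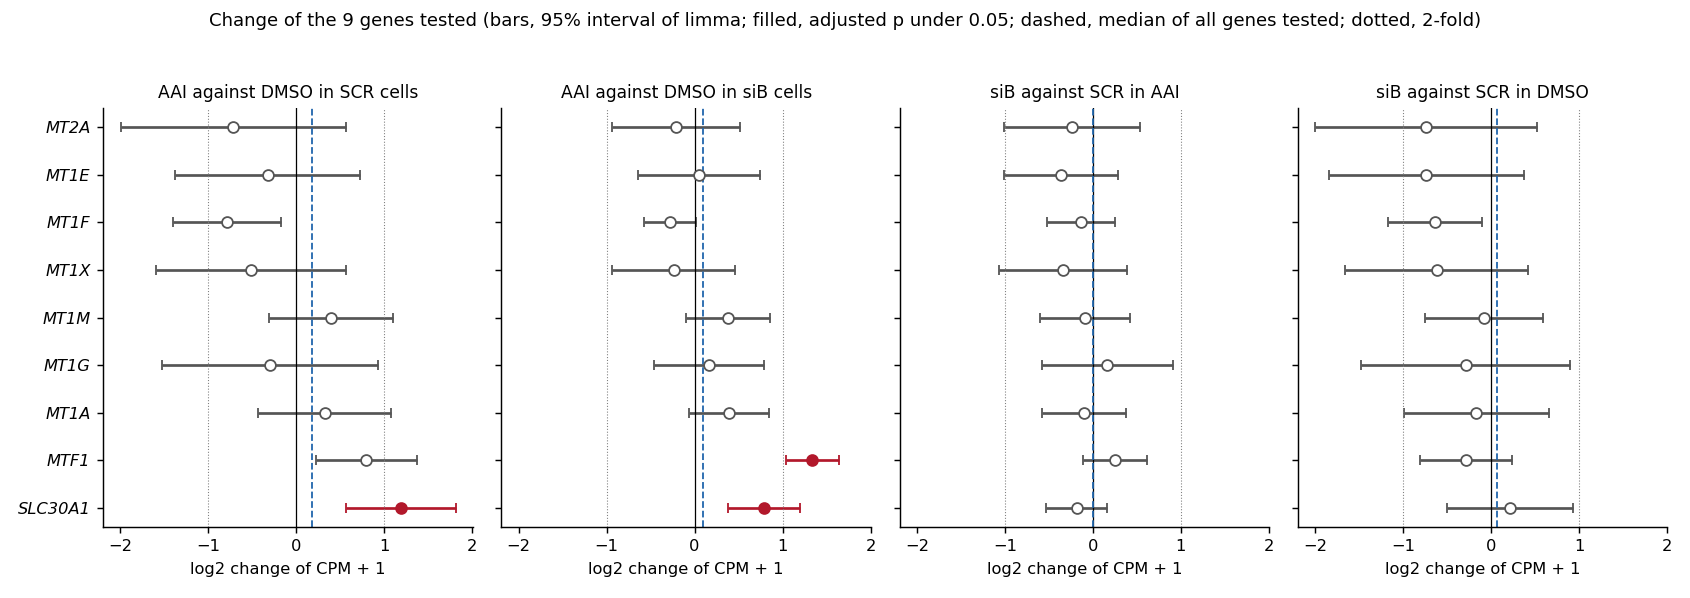
Log2 change of CPM + 1 (x axes) of the 9 genes tested (y axis) in the 4 comparisons, with 95% intervals of limma; filled red points have an adjusted p under 0.05, the dashed line is the median of all genes tested and dotted lines mark 2-fold. Filled points are *SLC30A1* at 1.19 in SCR cells, and *MTF1* at 1.34 and *SLC30A1* at 0.79 in siB cells.

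No metallothionein or zinc response gene passed the test between siB and SCR cells, in either treatment. In AAI-treated cells 0 of 9 were called higher or lower when siB was compared with SCR, beside 3.04% and 0.629% of all 14946 genes (limma, 0 of 9 at an unadjusted p under 0.05). *MTF1* was 0.26 higher (SE 0.17, adjusted p = 0.366) and *SLC30A1* -0.19 (SE 0.16, adjusted p = 0.50) on the log2 scale. *MT1E* was at -0.36 (SE 0.30, adjusted p = 0.485), and with the replicate block its adjusted p was 0.0487, a value under the 2-fold limit. Without siB AAI replicate 1, *MT1E* was at 0.05 (adjusted p = 0.936), *MT1X* at 0.05 and *MT2A* at 0.23, each turned from a negative value. The 95% intervals of the 9 genes lay between -1.06 and 0.91, so differences over about 2-fold of CPM + 1 in either direction were outside them for every gene but *MT2A*, *MT1E* and *MT1X*, with lower ends of -1.01, -1.0 and -1.06. This scale understates the fold change of low genes. For *MT1G*, at a mean of 2.13 CPM in SCR AAI and with an upper end of 0.91, 2-fold in CPM was therefore not outside the interval.

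In vehicle, 0 of 9 genes were called when siB was compared with SCR (1 at an unadjusted p under 0.05, *MT1F*), beside 0% higher and 0% lower of all 13606 genes (limma, 644 genes at an unadjusted p under 0.05). All 7 metallothioneins tested had negative values, from -0.08 for *MT1M* to -0.74 for *MT2A* and *MT1E*, and each adjusted p was 1.0. *MT1F* was the member whose groups did not overlap (34.7 to 58.3 CPM in SCR, 27.6 to 31.7 CPM in siB), at -0.64 (SE 0.22), beside 3.64% of all genes whose siB libraries all lay lower. Without SCR DMSO replicate 2, *MT1A*, *MT1G* and *MT1M* had positive values of 0.07, 0.18 and 0.13 and *MT2A* a value of -0.24. The same SCR DMSO libraries served as the vehicle in the SCR comparison above.

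Whether the AAI response differed with the siRNA was tested as an interaction, in which 0 of 9 genes passed in either direction, beside 1.46% (higher in siB) and 0.157% (lower) of all 15325 genes (limma, 0 of 9 at an unadjusted p under 0.05). The interaction was 0.54 for *MTF1* (SE 0.27, adjusted p = 0.421), -0.40 for *SLC30A1* (SE 0.34, adjusted p = 0.723) and 0.51 for *MT1F* (SE 0.28, adjusted p = 0.486). Without SCR DMSO replicate 2 these values were 0.71, -0.15 and 0.34. For *MT2A* the interaction over all libraries was 0.51 with a 95% interval from -1.10 to 2.11, and 0.01 without SCR DMSO replicate 2. The calls of *SLC30A1* in SCR cells and of *MTF1* in siB cells are therefore not shown to differ between the siRNAs.

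The other zinc transporters were taken by family, as lists drawn up with results of these data known. SLC30 proteins move zinc out of the cytosol, to the outside or into vesicles. Of 9 SLC30 genes besides *SLC30A1*, 5 were tested in SCR cells, 4 with positive AAI values, and 0 passed (limma, 1 at an unadjusted p under 0.05), beside 8.98% of all genes higher and 3.36% lower. Their median was 0.79 beside 0.18 for all genes. In siB cells 7 were tested that had a library of at least 1 CPM in both groups, and 4 of them passed the adjusted p higher and 0 lower, beside 30.4% and 21.8% of all genes, with a median of 0.54 beside 0.10. These were the Golgi and secretory pathway transporters *SLC30A5* (0.80, SE 0.13, adjusted p = 0.000818), *SLC30A6* (0.52, adjusted p = 0.0178) and *SLC30A7* (0.75, adjusted p = 0.00152), and the endosomal *SLC30A4* (0.54, adjusted p = 0.0173). *SLC30A5* passed in all 23 alternatives and *SLC30A7* in all but the fit of all 4 groups (adjusted p = 0.0908). *SLC30A4* did not pass in 6, among them without siB DMSO replicate 2 or 3 (adjusted p = 0.0747 and 0.0681), nor *SLC30A6* in 8, among them without siB DMSO replicate 2 or 3 or siB AAI replicate 2 (adjusted p = 0.0687, 0.0809 and 0.0620). The SCR values of *SLC30A4*, *SLC30A5* and *SLC30A7* were 0.83, 0.80 and 0.79, with SEs of 0.36, 0.34 and 0.40.

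*SLC30A10*, a member of the zinc family best known as a manganese exporter, stood at 0.231, 0 and 0.294 CPM in SCR DMSO, 1.10, 1.36 and 0.900 CPM once AAI was added, 0.128, 0 and 0.0558 CPM in knockdown cells with vehicle and 6.82, 4.57 and 3.05 CPM in knockdown cells with AAI. It was near 0 without AAI and did not overlap between treatments with either siRNA. It entered the test in siB cells only through the AAI libraries, where it was high, so its levels are given as a description with no test. In SCR cells it fell short of the filter.

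SLC39 proteins move zinc into the cytosol. Of 14 genes, 11 were tested in SCR cells and 12 in siB cells. *SLC39A13*, the importer ZIP13 of intracellular vesicles, fell in both: it stood at 26.7, 45.6 and 30.4 CPM in SCR cells given vehicle and 10.2, 13.5 and 10.6 CPM in those given AAI, and at 33.3, 42.2 and 44.4 CPM in knockdown cells with vehicle and 11.9, 13.5 and 12.6 CPM in knockdown cells with AAI. No AAI library reached a DMSO library. The log2 changes were -1.48 (SE 0.28, adjusted p = 0.0133) and -1.57 (SE 0.15, adjusted p = 3.69e-05). The adjusted p with the scrambled siRNA was 0.108, 0.0852 and 0.122 without SCR AAI replicate 1, 2 and 3, at -1.40, -1.59 and -1.43.

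In siB cells 11 SLC39 genes were tested that had a library of at least 1 CPM in both groups, and 3 passed the adjusted p higher and 3 lower, close to the 30.4% and 21.8% of all genes. In SCR cells 0 of 11 passed higher and 1 lower, beside 8.98% and 3.36% of all genes. The plasma membrane importer *SLC39A10* rose by 0.99 (SE 0.16, adjusted p = 0.000647), passing in all alternatives but the fit of all 4 groups (adjusted p = 0.0970). *SLC39A6* was at 0.52 (adjusted p = 0.0240) and did not pass in 10 of 23 alternatives, among them without siB DMSO replicate 2 or 3 or siB AAI replicate 1 or 3 (adjusted p = 0.0538 to 0.0846). *SLC39A9* was at 0.38 (adjusted p = 0.0106), and at 0.27 (adjusted p = 0.0558) and 0.20 (adjusted p = 0.145) with median-ratio and trimmed-mean scaling and 0.35 (adjusted p = 0.0619) without siB DMSO replicate 3. *SLC39A11* was at -1.0 (SE 0.19, adjusted p = 0.00183), and *SLC39A3* at -0.46 (adjusted p = 0.0148), which did not pass without siB DMSO replicate 2 or 3 or siB AAI replicate 3 (adjusted p = 0.0604, 0.0824 and 0.0623). The change of *SLC39A11* lay at the 2-fold limit, and was under it without siB DMSO replicate 1 (-0.96) or 3 (-0.96) and without siB AAI replicate 2 (-0.85) or 3 (-0.99), and that of *SLC39A10* was over it without siB DMSO replicate 1 (1.15) and without siB AAI replicate 2 (1.01) or 3 (1.06). *SLC39A5* was at 0 to 0.214 CPM in siB cells with vehicle and 1.61 to 3.22 CPM with AAI, and since it entered the test only through the AAI libraries it is left out of the counts.

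**Figure D5:**
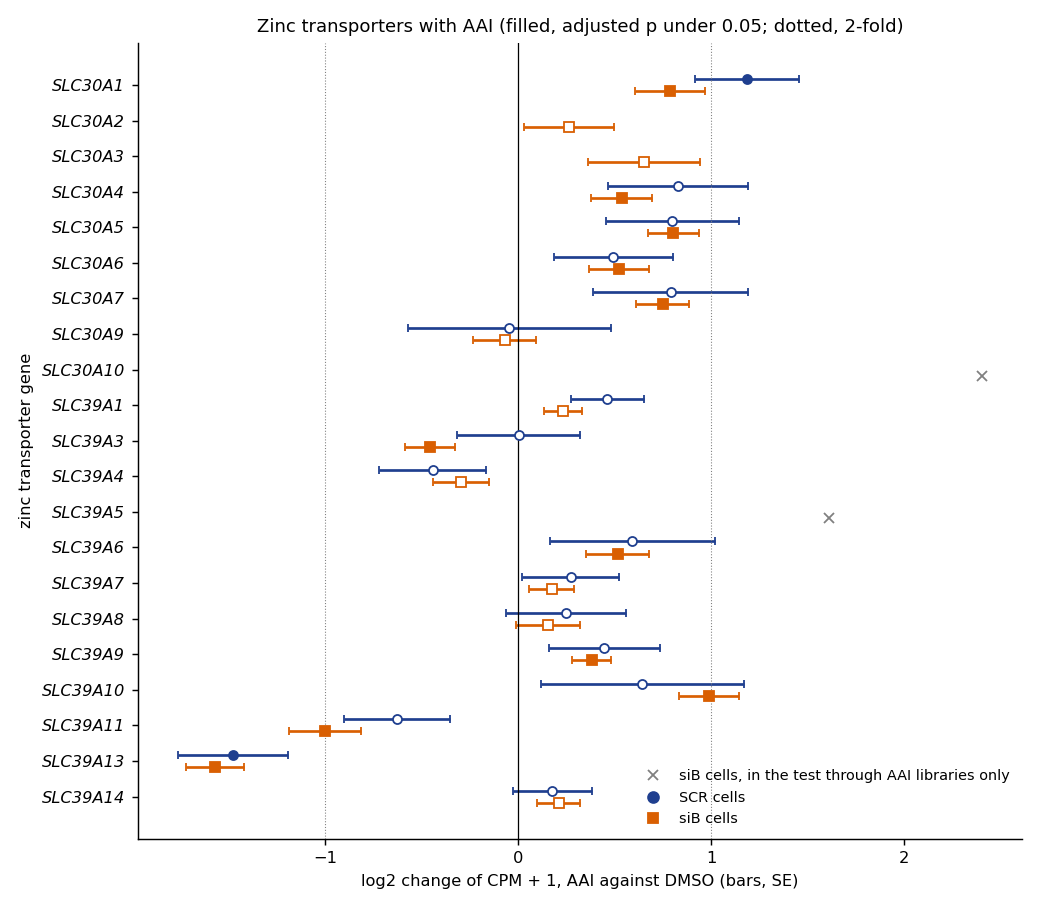
Log2 change of CPM + 1 with AAI (x axis, bars are SE) for each zinc transporter gene tested (y axis) in SCR cells (blue circles) and siB cells (orange squares); filled symbols have an adjusted p under 0.05, dotted lines mark 2-fold, and grey crosses with no error mark the pair of genes that entered the test in siB cells through AAI libraries only. *SLC39A13* lies farthest to the left at -1.48 and -1.57, and *SLC30A1* is the exporter filled for both siRNAs, at 1.19 and 0.79.

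Metallothioneins also bind copper, and genes of copper and iron handling formed a list of 14, all tested. In SCR cells 1 passed the adjusted p higher and 1 lower, beside 8.98% and 3.36% of all genes, and in siB cells 2 passed higher and 7 lower, beside 30.4% and 21.8%. *COMMD1*, a copper export factor, stood at 9.75, 12.9 and 8.75 CPM in SCR cells given vehicle and 2.82, 2.85 and 2.66 CPM in those given AAI, a log2 change of -1.59 (SE 0.24, adjusted p = 0.00453), and fell by 1.11 in siB cells (SE 0.19, adjusted p = 0.00106). Without SCR AAI replicate 1, 2 or 3 it had an adjusted p of 0.0626, 0.0698 and 0.0787, and without siB AAI replicate 1 its change in siB cells was -0.95, under 2-fold. *TFRC*, the transferrin receptor, rose by 1.60 in siB cells (SE 0.12, adjusted p = 1.14e-05) and in all 23 alternatives there. In SCR cells *TFRC* was at 0.97 (SE 0.23, adjusted p = 0.0314), which did not pass in 12 of 23, among them both other scalings (0.77 and 0.75), nor without SCR DMSO replicate 1 or 3 or any SCR AAI replicate (adjusted p = 0.0532 to 0.207). In siB cells the iron exporter *SLC40A1* was at -1.01 (SE 0.19, adjusted p = 0.00159; -0.91 without siB DMSO replicate 1 and -0.87 without siB AAI replicate 2) and *CCS*, the copper chaperone of *SOD1*, at -0.68 (adjusted p = 0.00312).

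Genes that metals and oxidants induce through other factors did not move as one. Of 11 tested, 1 passed the adjusted p higher and 0 lower in SCR cells, beside 8.98% and 3.36% of all genes, and 1 higher and 3 lower in siB cells, beside 30.4% and 21.8%. *OSGIN1*, an oxidative stress response gene, stood at 8.18, 16.9 and 20.5 CPM in SCR cells given vehicle and 49.3, 89.4 and 65.5 CPM in those given AAI, a rise of 2.14 (SE 0.38, adjusted p = 0.00895). Leaving out SCR AAI replicate 1, 2 or 3 gave adjusted p-values of 0.0588, 0.0956 and 0.0939. In siB cells *OSGIN1* was at 0.67 (SE 0.21, adjusted p = 0.0246), which did not pass in 9 of 23 alternatives, among them both other scalings and without siB DMSO replicate 1 or siB AAI replicate 2 or 3 (adjusted p = 0.0604, 0.103 and 0.102). *HMOX1*, heme oxygenase and a classic cadmium-induced gene, stood at 15.6, 69.9 and 50.7 CPM in SCR cells given vehicle and 22.1, 51.8 and 47.6 CPM in those given AAI (-0.01, adjusted p = 0.993), and fell by 1.39 in siB cells (SE 0.28, adjusted p = 0.00283, and 0.0502 with all 4 groups in the fit), from 41.7, 48.8 and 53.4 to 9.97, 21.9 and 24.7 CPM. The heat shock gene *HSPA1B* was at -0.53 in siB cells (adjusted p = 0.0124, and 0.269 with all 4 groups in the fit). Another, *DNAJB1*, was at -0.32 (adjusted p = 0.0389), which did not pass in 10 of 23 alternatives, among them without siB DMSO replicate 2 or 3 or siB AAI replicate 2 or 3 (adjusted p = 0.106 to 0.187).

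Glucocorticoids also induce metallothioneins. Of the glucocorticoid receptor and 6 of its usual targets, 0 of 6 tested passed in SCR cells (limma, 1 at an unadjusted p under 0.05, *PER1*), beside 8.98% of all genes higher and 3.36% lower. In siB cells 1 of 7 passed higher and 1 lower, beside 30.4% and 21.8% of all genes. The clock gene *PER1* was at 0.52 in siB cells (adjusted p = 0.0178, 0.0587 without siB AAI replicate 3 and 0.0603 with trimmed-mean scaling). The kinase *SGK1* was at -0.50 (adjusted p = 0.0487), which did not pass in 16 of 23 alternatives, with adjusted p-values up to 0.217, among them without siB DMSO replicate 1, 2 or 3 or siB AAI replicate 1 or 2 (-0.27 without siB AAI replicate 1). *PER1* had a larger value in SCR cells, 0.82 (SE 0.22), that did not pass (adjusted p = 0.0503).

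Genes on either side of the cluster on chromosome 16 were examined as well. Of 9, 7 were tested in SCR cells and 0 passed (limma, 1 at an unadjusted p under 0.05, *OGFOD1*), beside 8.98% of all genes higher and 3.36% lower. In siB cells 7 were tested that had a library of at least 1 CPM in both groups, and 1 passed higher and 2 lower, beside 30.4% and 21.8% of all genes. *OGFOD1* rose by 0.58 (adjusted p = 0.00352) and passed in all 23 alternatives. *HERPUD1* was at -0.40 (adjusted p = 0.0165, and 0.0574 without siB DMSO replicate 2) and *NLRC5* at -0.65 (adjusted p = 0.0202, and 0.0936 without siB DMSO replicate 3). *SLC12A3*, the thiazide-sensitive sodium chloride cotransporter of the distal tubule, stood at 0.231, 0.257 and 0.221 CPM in SCR cells given vehicle, 1.49, 0.680 and 1.17 CPM in those given AAI, 0.128, 0.0451 and 0.0558 CPM in knockdown cells with vehicle and 5.30, 4.29 and 6.70 CPM in knockdown cells with AAI. *CETP* was at 0.135 to 0.279 CPM with vehicle and 1.13 to 2.08 CPM with AAI in knockdown cells. Both entered the test in siB cells only through the AAI libraries, so their levels are a description with no test. *SLC12A3* is also 1 of 7 markers of other nephron segments, whose summed level was 0.558 to 0.902 CPM with vehicle and 10.5 to 11.4 CPM with AAI in knockdown cells. Only 1 of these 7 had a mean of at least 1 CPM over the libraries. All libraries came from the HK-2 line, and what these levels mean for the kind of cell was not tested.

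The genes whose levels were most like the mean log2 level of the 7 detected metallothioneins over the 12 libraries, of 11556 with a mean of at least 5 CPM, were *EIF6* (Pearson correlation 0.918), *ATP10A* (0.916), *AP2S1* (0.897), *PRMT1* (0.893) and *BOLA2* (0.882). Without SCR DMSO replicate 2 the correlations were 0.863, 0.851, 0.836, 0.807 and 0.823. With group means removed they were 0.948, 0.905, 0.960, 0.958 and 0.994, so varying with the metallothioneins was not particular to that family. These correlations are descriptions over libraries that share group and depth.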

How the data were processed

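PolyA RNA of 12 HK-2 libraries was measured. Groups and replicates were taken from the sample titles, since the treatment field of the labels read DMSO in all. The authors mapped paired-end reads to hg38 and quantified genes of a UCSC annotation in BioJupies; the aligner and strand setting are not given in the sources used here. The authors deposited log10 values, log10(CPM + 1), for 35238 genes, from which CPM and whole reads were recovered (100% of low values whole within 0.05 reads); 28 names had become dates and 7627 genes were at 0 throughout.

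Each pair of groups was fitted alone with limma 3.58.1 in R 4.3.3 (lmFit, eBayes with trend) on log2(CPM + 1), over genes with at least 1 CPM in at least 3 libraries fitted, and adjusted p-values (Benjamini-Hochberg) are over all genes tested. Calls needed an adjusted p under 0.05 and 2-fold; the interaction, over all 4 groups, had no fold limit. Fold changes on this scale understate those of low genes. The code of the fit was run on simulated data with a single spread setting for all genes. That spread was not matched to these libraries, so the run says nothing on false or missed calls here. Values per kilobase used canonical transcripts of GENCODE 44, matched by symbol.

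The members and lists were chosen with earlier results of these data known. Named were the 10 genes; in each list, up to 4 genes with a mean of at least 1 CPM and the smallest p in either AAI comparison; list genes called in any comparison; and the 5 genes most correlated with the metallothionein mean. *SLC30A6*, *SLC30A9*, *SLC39A6* and *SLC39A3*, outside this rule, were named after their values were seen.

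Around their group means, libraries of one number deviated together over 15325 genes, with correlations of 0.42, 0.47 and 0.34 in AAI against DMSO in SCR cells and by 0.61, 0.32 and 0.29 in siB against SCR with AAI, so numbers were taken to pair libraries there; in the other comparisons the lowest were 0.026 and -0.19.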

Additional observations from a re-analysis of the deposited data

Results flagged for a closer look

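Of the genes on the lists, 2 passed the adjusted p in the interaction test of limma over all 4 groups, beside 1.46% (higher in siB) and 0.157% (lower) of all 15325 genes. Both were near 0 in vehicle and entered the test only through AAI libraries, where they were high. Their p-values therefore do not stand as independent support for a difference between the siRNAs. For *SLC12A3* the interaction was 1.81 on the log2 scale (SE 0.26, adjusted p = 0.00602), with 3 of 3 siB AAI libraries above every SCR AAI library. Its adjusted p was 0.0622 without siB AAI replicate 1, 0.0526 without siB AAI replicate 3 and 0.157 with voom on the recovered reads. For *SLC30A10* the interaction was 1.55 (SE 0.31, adjusted p = 0.0283), again with 3 of 3 siB AAI libraries above every SCR AAI library. That result was lost in 20 of 32 alternatives, with adjusted p-values from 0.0110 to 0.653 over all of them, among them a pseudocount of 0.1 CPM (0.179), voom (0.653) and the removal of SCR DMSO replicate 1 (0.0698) or 3 (0.0850), SCR AAI replicate 2 (0.0540) or 3 (0.0819), siB DMSO replicate 1 (0.0698), 2 (0.0926) or 3 (0.0889), or siB AAI replicate 1 (0.111), 2 (0.123) or 3 (0.0526). The levels of both genes, given above, remain a description.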

How the results depend on the processing

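For single genes among the 10, 1099 of 1114 values under an alternative kept their side of the threshold, 12 lost the call (each *SLC30A1* in SCR cells) and 3 gained it (*SLC30A1* in siB cells). Each left-out library gave 2 of these values per gene, and no fold limit repeats the values of the main fit. These counts, and those of list genes below, are thus not counts of separate checks. A turn of direction was counted only where the 95% interval of limma left out 0 in both fits, or where a fit had a call, and 0 turned. Values with intervals around 0 and no call could not turn by this rule, so the 0 says nothing about them. Signs did change, as for *MT1M* in 13 of 33 and *MT1A* in 10 of 32 alternatives of the interaction, and *MT1E* in 6 of 23 in siB cells. The number of the 10 genes called higher in SCR cells, 1, was 0 with median-ratio factors and 0 with trimmed-mean (TMM) factors, which were computed here with own code, and ran from 0 to 1 when a replicate was left out; in siB cells it was 2 with no fold limit and ran from 1 to 2 when a replicate was left out. Of 981 values of list genes, followed after seeing the data, 57 lost a call, 45 gained one and 0 turned; losses of the adjusted p alone are given beside those genes. Over all genes, calls higher in SCR cells fell to 474 with a mean of at least 5 CPM (250 lower) from 1100 (389 lower), and as far as 158 when a replicate was left out; calls lower were 698 and 746 with median-ratio and TMM factors and ran from 30 to 749 when a replicate was left out. In siB cells 2080 higher and 864 lower became 882 higher with that filter and 4535 and 3259 with no fold limit, and 965 higher without siB AAI replicate 1. For siB against SCR with AAI, 454 and 94 became 134 higher with that filter and 820 and 567 with no fold limit, and reached 144 higher and 44 to 164 lower when a replicate was left out. For siB against SCR in vehicle, 0 and 0 became 5 and 1 with all 4 groups in the fit. In the interaction, 223 and 24 became 38 and 8 with a pseudocount of 0.1, 557 and 68 with no filter, 0 and 0 with that filter, 0 and 0 with voom and 38 lower without the gene AC010970.2, and ran from 7 to 498 and from 1 to 512 when a replicate was left out. The causes were not tested.

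With the replicate number as a block, 1 and 1 of the 10 genes were called higher in SCR and siB cells and 0 in the other comparisons, so no member's call changed, though *MTF1* in SCR cells and *MT1E* in siB against SCR with AAI passed the adjusted p; calls lower in the interaction over all genes went from 24 to 102. With 3 libraries a group, the wide intervals of the metallothioneins in SCR DMSO limit what could be detected, and depth limits *MT1H*.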

Other observations

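Of 12 further metallothionein loci in the table, none reached the filter in either AAI comparison. Several were higher with AAI at very low levels, some of them by only a few reads a library. How many other genes at such levels were higher with AAI was not counted. *MT1XP1*, a processed pseudogene on chromosome 1 (chr1:16241213-16241398, minus strand, hg38) that lies 5442 bases past the end of *FBXO42* on the same strand, was at 0 in 5 of 6 vehicle libraries and at 0.0467 CPM (2 reads) in SCR DMSO replicate 2. With AAI it stood at 1.05, 0.861 and 0.822 CPM in SCR cells and 1.01, 0.877 and 0.482 CPM in siB cells, so it was listed above every vehicle library in 6 of 6 AAI libraries. *MT1JP*, a non-coding RNA of the cluster, was at 0.231, 0.467 and 0.331 CPM in SCR cells given vehicle and 0.773, 0.861 and 0.705 CPM in those given AAI, and at 0.299, 0.316 and 0.112 CPM in siB DMSO and 0.631, 0.646 and 0.857 CPM in siB AAI. *MT1L*, a transcribed pseudogene between *MT2A* and *MT1E*, went the other way from these in SCR cells, at 0.231, 1.80 and 1.07 CPM with DMSO and 0.166, 0.680 and 0.392 CPM with AAI, groups that overlapped, and at 0.171, 0.586 and 0.502 CPM with DMSO and 0.757, 1.02 and 0.482 CPM with AAI in siB cells. In the interaction over all 4 groups, where *MT1L* reached the filter, its value was 0.77 (SE 0.38) and did not pass (limma, adjusted p = 0.423). These loci were named after their values were seen. *MT3*, the brain metallothionein, had at most 0.0906 CPM in any library, and *MT2P1* had 0 reads in all 12.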
